A study of Mus musculus with 47 samples.

Results

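The electron transport chain of mitochondria passes electrons from complex II (succinate dehydrogenase, also an enzyme of the citric acid cycle) through complex III (cytochrome bc1) and the small carrier cytochrome c to complex IV (cytochrome c oxidase), which hands them to oxygen. Complexes III and IV pump protons, and complex V (ATP synthase) lets them flow back to make ATP. Complex II is coded by nuclear genes alone, whereas complexes III, IV and V also hold subunits coded by the mitochondrial genome. Fast-spiking interneurons are known for a high content of cytochrome c oxidase, and late-spiking neurogliaform cells, many of which make neuropeptide Y (NPY), are another class of inhibitory neurons.

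The nuclear genes of these complexes were described in single NPY-positive neurons of the mouse auditory cortex (AC) and of hippocampal areas CA3 and CA1. Members were all rows of the read count table whose symbols begin with Uqcr, Cox4 to Cox8 or Atp5, together with Sdha, Sdhb, Sdhc, Sdhd, Cyc1 and Cycs. This gave 49 of 22800 symbols: 4 for complex II, 9 for complex III, 1 for cytochrome c, 18 for complex IV and 17 for complex V. The names do not always mean a subunit. Atp5s and Atp5sl, now called Dmac2l and Dmac2, and Cox7a2l, a factor that joins complexes into supercomplexes, came in by their symbols, and nuclear complex I was left out of the members and is given beside them.

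The mice carried a green fluorescent protein under the control of Npy sequences (named NPY-hrGFP in the methods of the paper and NPY-EGFP in the deposited design), were of both sexes and were 3 to 8 weeks old, with no other treatment named. The fluorescent protein marks cells in which the transgene is active, so the sampled cells depend on it. AC cells came from layers 1 and 2 in coronal slices and CA3 cells from stratum lacunosum-moleculare in horizontal slices, so the slice plane cannot be told apart from the region. Cytosol was drawn into the patch pipette after recording, and polyadenylated RNA of each cell was amplified and sequenced. The main comparison used 10 AC and 13 CA3 cells, with 3 CA1 cells beside them. All 3 groups share the transgene. Of the 47 columns, the labels give 20 to AC, including a pair from what was taken as 1 cell, and 21 to CA3. No label names a mouse for any cell, and 8 mice are given for the whole set, so each region is 1 sample here, and no test between regions was made. SDs over cells describe cells only.

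Total counts were 1715012 to 6265431 reads in AC cells, 2229519 to 7949918 in CA3 cells and 601781 to 3202430 in CA1 cells, and 3163 to 6288, 3679 to 8149 and 4367 to 6095 genes had a read. Gad1, Gad2 and Npy, markers of the labelled cell type, had reads in all 26 cells. Slc32a1, another marker of inhibitory neurons, had reads in 5 of 10 AC, 12 of 13 CA3 and 2 of 3 CA1 cells. Of the glial lists, Aqp4 of astrocytes, Mog of oligodendrocytes and Tmem119 of microglia were at 0 in all 26. Other genes of these lists had reads: Slc1a2 of astrocytes in 6 AC, 9 CA3 and 3 CA1 cells, C1qa of microglia in 5, 6 and 1, and Mbp of oligodendrocytes in 2, 7 and 1. Shares of reads are given as CPM, the reads on the genes of a list scaled to a common total for each cell. The summed microglia list ranged from 0 to 5227 CPM in AC, with the highest value in N42, from 0 to 2244 CPM in CA3 and from 0 to 452 CPM in CA1. The summed astrocyte list ranged from 0.303 to 3237 CPM in AC, with the highest value in N4, from 0 to 659.6 CPM in CA3 and from 155 to 1683 CPM in CA1. The oligodendrocyte list reached 367, 1043 and 567 CPM, and the pyramidal cell list 189.7, 383 and 648 CPM, in the same order of regions. The part of these cells' RNA in the values below was not tested. AC cell N44 stood apart among the AC cells, with reads on only 25 of the 42 tested members, and values that it moved by over 1.5 times are given with and without it.

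Promoters of 38 members were found in the RefSeq table (GRCm38.p6), which runs from 250 bases before to 50 bases after the start of each gene. Nuclear respiratory factor 1 (NRF1) is a transcription factor known to bind the promoters of many respiratory chain genes, at sites that hold the letters searched here as its core. The core searched was GCATGCGC on either strand. It was present in 8 of the 33 tested members with a promoter (24.2%), against 6.02% of 4636 other tested genes and 2.80% of all 27025 promoters. These were Atp5g2, Atp5k, Atp5l, Cox6a1, Cycs, Sdhb, Uqcr11 and Uqcrc1. In 4 of the 8 the whole core lay within the 100 bases before the start, and these windows are printed because they show the letters that genes of complex II, cytochrome c and complex V share. Capitals mark the core. In Atp5g2 and Atp5k the matches of both strands overlap in a longer palindrome.
Sdhb, chr4:140961171-140961270, plus strand: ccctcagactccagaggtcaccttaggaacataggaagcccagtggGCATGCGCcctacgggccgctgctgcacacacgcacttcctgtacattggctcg
Cycs, chr6:50566570-50566669, minus strand: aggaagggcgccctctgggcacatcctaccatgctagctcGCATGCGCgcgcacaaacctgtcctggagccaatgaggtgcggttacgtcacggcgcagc
Atp5k, chr5:108434400-108434499, minus strand: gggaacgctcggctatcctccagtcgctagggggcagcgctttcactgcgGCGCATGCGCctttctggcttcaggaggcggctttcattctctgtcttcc
Atp5g2, chr15:102671048-102671147, minus strand: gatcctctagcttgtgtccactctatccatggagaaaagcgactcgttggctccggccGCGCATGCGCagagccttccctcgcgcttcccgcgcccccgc

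A core of the ETS family, to which the respiratory gene factor GABPA belongs, was searched as CCGGAAG on either strand and was present in 11 of 33 promoters (33.3%), against 20.3% of the other tested genes and 9.12% of all promoters. The YY1 core AAGATGGC was present in 3 (9.09%, against 5.89% and 2.88%), and the TATA box letters TATAAA in 1 (3.03%, against 5.85% and 14.2%). An ETS core can run into a YY1 core, since it ends in the letters with which that core starts. A match is a description of letters and was not set against binding. The 8 tested members with the NRF1 core had a median difference between AC and CA3 of -1.60 on the log2 scale of levels (range -2.32 to -0.43), and the 25 without it -1.72 (range -3.64 to 0.90).

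Complexes II to V took a smaller share of the reads in AC than in CA3. Over the summed reads of a region, the 49 genes held 11738 CPM in AC (95% Poisson interval 11702 to 11775), 21444 CPM in CA3 (21403 to 21485) and 8232 CPM in CA1 (8153 to 8311), or 1.17%, 2.14% and 0.823% of all reads. These intervals cover counting error only, and reads are not independent molecules. The share in CA3 was 1.83 times that in AC. By cell, the lowest, median and highest sums were 5514, 11004 and 18820 CPM in AC and 11481, 23806 and 29397 CPM in CA3, and the 3 CA1 cells held 6916 (N1), 7871 (N2X) and 9813 (N6) CPM. The ranges of AC and CA3 overlapped: AC cells N41, N42, N43 and N8 lay above the lowest CA3 cells N37 and N38, while all 3 CA1 cells lay below every CA3 cell. Fewer molecules of these genes and more molecules of all others give the same share, and the difference between them cannot be told apart in CPM.

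**Figure D1:**
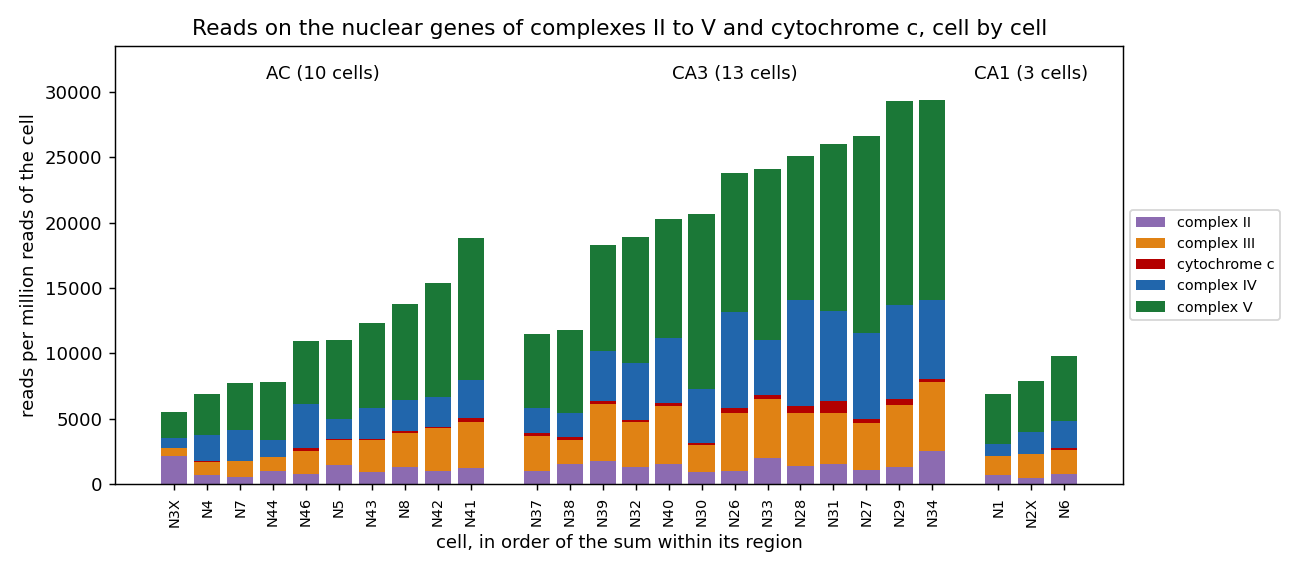
Reads on the 49 genes in CPM of each cell (vertical axis), 1 bar per cell with cells ordered by their sum within AC (10), CA3 (13) and CA1 (3), and colours for the complexes. The AC bars run from 5514 to 18820, the CA3 bars from 11481 to 29397 and the CA1 bars from 6916 to 9813, and complex V is the largest block in all but N3X.

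The parts of this sum differed in how far they were apart. Complex V, the largest part, held 6159 CPM in AC and 10808 CPM in CA3, and took 52.5% of the members' reads in AC, 50.4% in CA3 and 50% in CA1. The CA3 sum over the AC sum was 1.31 for complex II, 1.86 for complex III, 2.54 for cytochrome c, 2.25 for complex IV and 1.75 for complex V. Complex IV accordingly made up 18.5% of the members' reads in AC and 22.7% in CA3, and complex II 10.2% and 7.30%. The same ratio was 2.30 for 45 nuclear genes listed under complex I, 1.63 for the 13 protein genes of the mitochondrial genome and 1.70 for 84 cytosolic ribosomal protein genes. The complex I list holds Nduf symbols, among them the assembly factors Ndufaf1 to Ndufaf7, which are no subunits, and Ndufa4, now placed in complex IV.

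For single genes, the level is log2(normalized count + 1) in a cell, with size factors computed over the 23 AC and CA3 cells, and a gene was compared where at least 10 of the 23 cells had a read. Genes that passed this filter are called tested, although no p was computed. A gene read in few AC cells passes only when many CA3 cells have it, so for such genes a lower level in AC is built into the filter. A difference in mean level of 1 or more was taken as past the fold. Of the 49 members, 42 passed the filter. Cox6b2, Cox7b2, Cox8b and Cox8c, isoforms known from testis or from heart and muscle, had 0 reads in all 23 cells and in CA1, which allows up to 0.0881 CPM in AC and 0.0614 CPM in CA3 (3 reads over the reads of the region). Cox4i2 (7 reads in AC cell N4), Cox7a1 (47 reads in AC cell N8) and Atp5s (2 AC and 7 CA3 cells) were the others that did not pass.

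Mean levels were lower in AC than in CA3 for 41 of the 42 members, and for 67.9% of all tested genes. The difference was 1 or more for 33 of them (78.6%), whereas 46.9% of all 5964 tested genes were lower in AC by as much. No member was higher in AC by 1 or more, against 16.6% of all tested genes. The median difference of the members was -1.74 (range -4.10 to 0.90), and that of all tested genes was -0.84, so the members lay -0.90 from it. With all labelled cells the median of the members was -3.70 and its distance from all genes -2.50, and with ratios of summed CPM the median was -1.15. The offset of all genes was -0.97 with TMM factors, and it was nearer to 0 without the filter (-0.33) and for ratios of summed CPM (-0.10). Under these alternatives 41 of 42, 42 of 45 and 41 of 42 members were lower in AC, against 70.0%, 62.6% and 53.6% of all genes compared. For no member did every AC cell lie below every CA3 cell, which was so for 0.0168% of the tested genes. Uqcrb came nearest, with 8 of 10 AC cells below the lowest CA3 cell, and the difference exceeded the SD over cells in both regions for 1 member, Atp5j. Without N44 the median of the members was -1.34, its distance from all genes -0.59, and 30 members were lower by 1 or more. For 9 of the 33 members the difference fell below 1 when 1 cell was left out: Atp5a1 (N3X or N7), Atp5c1 (N4), Atp5e (N3X or N44), Atp5f1 (N44), Atp5l (N3X), Cox4i1 (N44), Cox6c (N3X), Cox7c (N7) and Uqcr11 (N41).

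**Figure D2:**
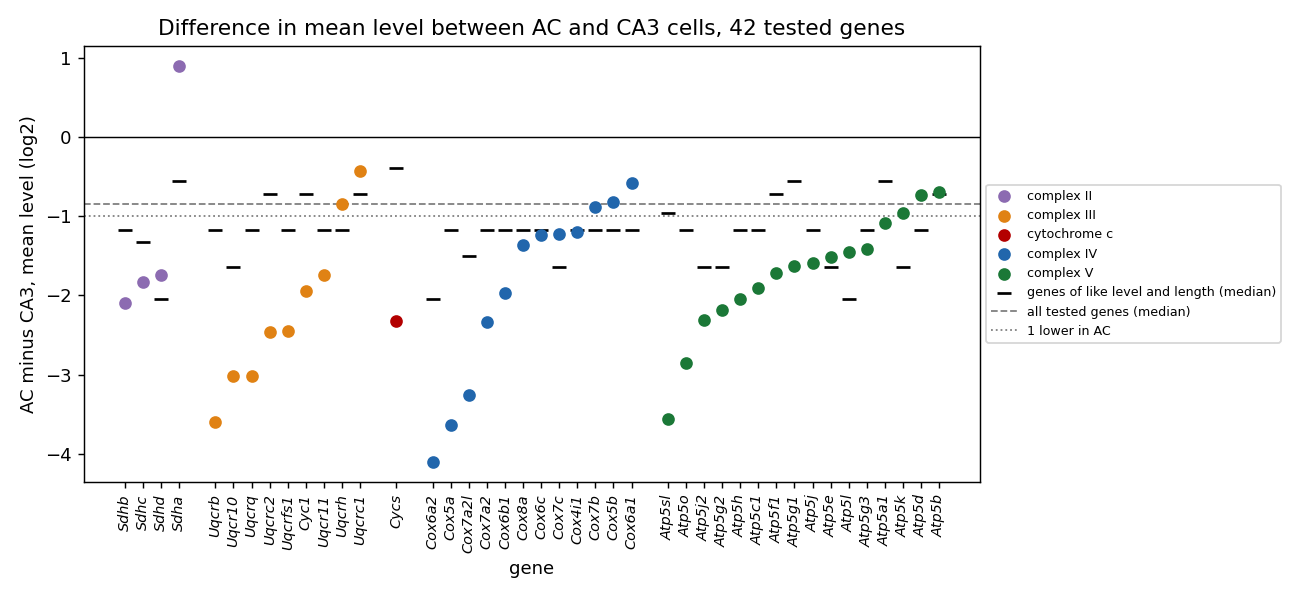
AC minus CA3 difference in mean level (log2, vertical axis) of the 42 tested genes, 1 point per gene, coloured and grouped by complex, with black dashes for the median of genes of like level and length. The points span -4.10 (Cox6a2) to 0.90 (Sdha), and all but Sdha lie below 0.

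Part of the members' difference lay in cells with no read at all, which were more frequent in AC among all tested genes too. The mean share of cells with a read was 86.4% in AC and 97.8% in CA3 over the 42 members, and 60.3% and 72.7% over all tested genes. All 13 CA3 cells had reads on 37 members, and all 10 AC cells on 17. The number of tested members with a read was 25 to 41 in AC cells, 39 to 42 in CA3 cells and 35, 36 and 40 in CA1 cells. Levels were more spread in AC, with a higher SD for 38 of 42 members and a median SD of 2.95 in AC against 0.97 in CA3. When the mean was taken only over cells with a read on the gene, the median difference was -0.94 for the members, with 20 (47.6%) lower in AC by 1 or more and 1, Atp5sl, higher. In the same way the median was 0.17 for all tested genes, of which 19% were lower by 1 or more and 28.4% higher.

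**Figure D3:**
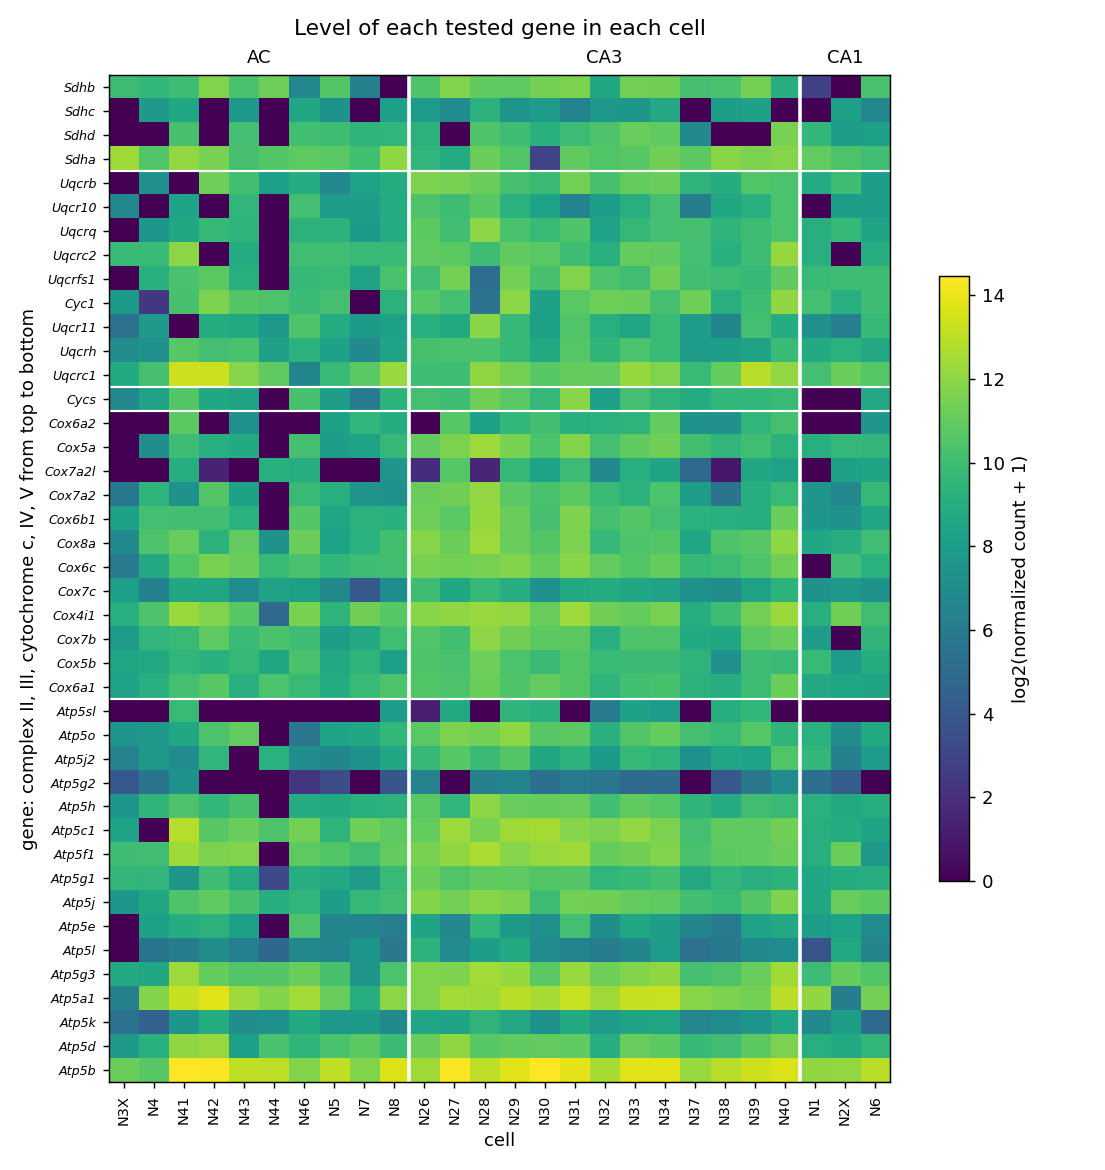
Level of each tested gene (rows, by complex) in each AC, CA3 and CA1 cell (columns), as log2(normalized count + 1) from dark at 0 to yellow at about 14. The dark squares, genes with no read, are more frequent among the AC cells, with N44 and N3X holding the most, and Atp5b forms the brightest row.

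The difference depended on which cells were set side by side. The labels number the cells without saying what the numbers stand for, and the sums followed the numbers as well as the regions. AC cells N3X to N8 held 5514 to 13749 CPM and CA1 cells N1 to N6 held 6916 to 9813, CA3 cells N26 to N34 held 18914 to 29397, and in the range from N37 on, CA3 cells N37 to N40 held 11481 to 20279 (median 15028) and AC cells N41 to N46 held 7792 to 18820 (median 12309). In a comparison chosen after seeing these values, the 5 AC cells N41 to N46 and the 4 CA3 cells N37 to N40 differed by a median of -0.44 over the 42 members and -1.0 over all tested genes. In these cells 17 members (40.5%) were lower in AC by 1 or more and 2, Sdhd and Uqcrh, were higher, while 49.9% of all tested genes were lower and 21.1% higher. Complex III (-2.13) and cytochrome c (-1.90) were lower in AC there too, whereas the median was -0.21 for complex IV, -0.29 for complex V and 0.35 for complex II. The sign of the difference turned for 15 of the 42 members, 8 of which had been lower in AC by 1 or more over all cells. Nuclear complex I had a median of -2.07 in the same cells, with 31 of 42 genes lower in AC by 1 or more. AC cells N3X to N8 against all 13 CA3 cells gave -2.01 for the members and -0.40 for all tested genes. What the numbers stand for was not tested.

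**Figure D4:**
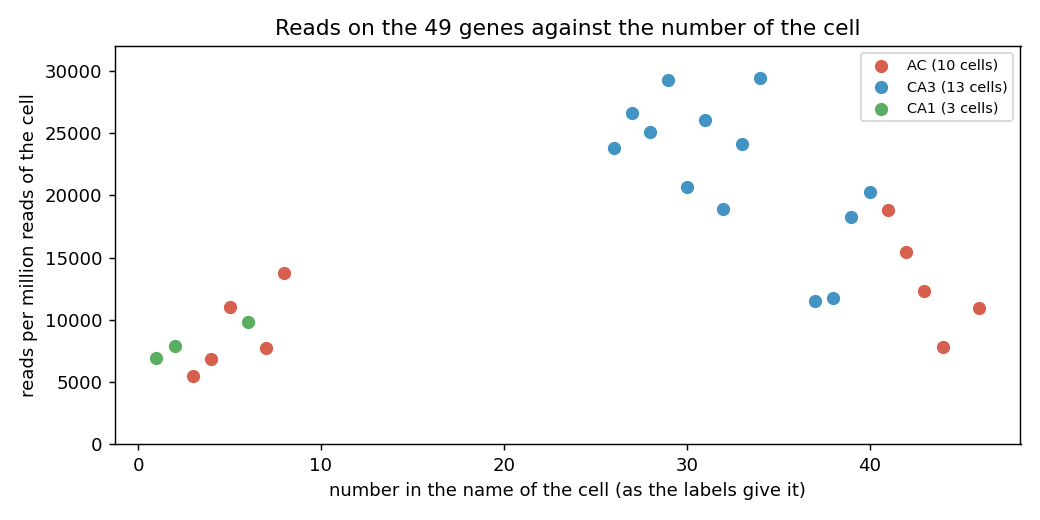
Reads on the 49 genes in CPM of the cell (vertical axis) against the number in the name of the cell (horizontal axis), 1 point per cell coloured by region. CA3 cells N26 to N34 lie between 18914 and 29397, and the AC cells N41 to N46 (7792 to 18820) overlap with the CA3 cells N37 to N40 (11481 to 20279).

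Members are highly expressed genes with short transcripts, so they were set beside genes of like mean level and transcript length, in 10 bins of level and 5 of length. The median transcript length was 744 bases for the members and 2622 bases for the tested genes, and the median member lay at percentile 94.0 of mean level. Of the 1215 other genes in the same bins, 55.1% were lower in AC by 1 or more, with a median of -1.24. Members lay below the median of their bin in 29 cases and above it in 13, with a median distance of -0.56 (range -2.61 to 1.45). Complex III was the farthest from its bins among the 4 complexes (-1.28), followed by complex V (-0.54), complex IV (-0.13) and complex II (-0.10). Without N44 the median distance of the members was -0.31, and with the neighbouring numbers N37 to N46 alone it was -0.07. It was -0.98 with a pseudocount of 0.1 and -0.95 with bins of level alone. Across all tested genes the Spearman correlation of length with the difference was 0.22, and across the members 0.07, as a description over genes that share their cells.

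In complex II, the catalytic flavin subunit Sdha went the other way from its partners. Sdha (chr13:74322254-74350280, minus strand, GRCm38) had levels of 10.10 to 12.39 in AC (median 10.83) and 2.97 to 11.87 in CA3 (median 10.82), a difference of 0.90 between the means. The medians were alike, and the difference rested largely on CA3 cell N30 at 2.97: without it the difference was 0.30. With the cells N37 to N46 alone it was -0.47. Sdha was also the only tested member with more CPM in AC than in CA3, with 755 CPM in AC, 626 CPM in CA3 and 370.2 CPM in CA1.

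The iron-sulfur subunit Sdhb, which passes the electrons on, ranged from 0.00 to 11.73 in AC (median 9.93) and from 8.61 to 11.72 in CA3 (median 10.95), a difference of -2.09. The 0.00 came from AC cell N8, and without that cell the difference was -1.13. With the cells N37 to N46 alone it was -0.23. The membrane anchors were found in fewer cells. Sdhc had reads in 6 of the AC cells and 11 of the CA3 cells, with medians of 7.58 and 7.71 and a difference in means of -1.83. Sdhd had reads in 6 of the AC cells and 10 of the CA3 cells, with medians of 9.43 and 9.88 and a difference of -1.74, which was -1.09 when any 1 of the 4 AC cells without reads was left out. For both anchors the difference in means lay in the cells without reads, and both turned to higher in AC with the cells N37 to N46 alone (0.92 and 1.47). The median of complex II, -1.79, was -1.19 without AC cell N3X, -0.79 with summed CPM and -2.84 with all labelled cells. It turned to 0.35 with the cells N37 to N46 alone and to 0.05 over cells with a read on the gene.

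Complex III had a median of -2.45, the lowest of the 4 complexes over all cells. All 9 members were lower in AC and 7 lower by 1 or more, against 67.9% and 46.9% of all tested genes. Without N44 the median of complex III was -1.78. Over cells with a read on the gene the order turned, with -0.85 for complex III, -1.11 for complex IV and -1.02 for complex V. The 5 small subunits had a median of -3.02 and the 4 core and catalytic ones -2.19. Uqcrb, a small subunit near the ubiquinone site (chr13:66900617-66905378, minus strand), ranged from 0.00 to 11.26 in AC (median 8.26) and from 8.97 to 11.60 in CA3 (median 10.53), a difference of -3.60. AC cells N3X and N41 had no read on it, N42 and N43 lay within the CA3 range, and all 3 CA1 cells had reads (8.90, 9.94 and 8.02). Of its possible 50-base stretches, 43.2% also occur in transcripts of other genes, so its count is uncertain. Uqcrq, another small subunit with no such stretch, differed by -3.02, from a range of 0.00 to 9.70 in AC (median 8.78) to 8.35 to 11.92 in CA3 (median 10.15).

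Uqcrc1, the core protein with the highest reads per kilobase of complex III in AC, was close between the regions. It ranged from 6.62 to 13.34 in AC (median 10.84) and from 9.72 to 12.88 in CA3 (median 11.02), a difference of -0.43 that became 0.03 without AC cell N46. Its reads were 534 CPM per kilobase in AC, 591 in CA3 and 332 in CA1. The Rieske protein Uqcrfs1 (-2.45), cytochrome c1 Cyc1 (-1.94) and core protein Uqcrc2 (-2.46) were lower in AC by 1 or more. Single AC cells weighed on them: the difference was -1.59 for Uqcrfs1 without N3X or N44, -1.57 for Uqcrc2 without N42 or N44, and -1.03 without N7 or -1.28 without N4 for Cyc1. With the cells N37 to N46 alone Cyc1 was at -0.06, Uqcrfs1 at -2.19 and Uqcrc2 at -4.19. Of the small subunits, Uqcr10 differed by -3.02 and was read in 7 AC cells and all CA3 cells, Uqcr11 differed by -1.74, or -0.92 without N41, and the hinge protein Uqcrh by -0.85.

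Cytochrome c itself, the carrier between complexes III and IV and also known as a trigger of apoptosis when released, is coded by Cycs (chr6:50562563-50566538, minus strand). Its level ranged from 0.00 to 10.56 in AC (median 8.31) and from 8.16 to 11.87 in CA3 (median 9.77), a difference of -2.32 that was -1.47 without N44. Among the CA1 cells only N6 had reads on it (8.73), a share of 33.3% (exact 95% interval 0.840 to 90.6). It had 123 CPM in AC, 313 CPM in CA3 and 31 CPM in CA1. Of its 50-base stretches 28.2% occur in other genes.

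In complex IV all 12 tested members were lower in AC, 9 by 1 or more, against 67.9% and 46.9% of all tested genes. The complex had a median of -1.30. Its distance from the genes of like level and length was small, and a few members made up the long tail. Cox5a, a general subunit (chr9:57521274-57532426, plus strand), ranged from 0.00 to 10.20 in AC (median 8.60) and from 9.28 to 12.34 in CA3 (median 10.91), a difference of -3.64. It had no read in AC cells N3X and N44, 7 of 10 AC cells lay below the lowest CA3 cell, and the CA1 cells lay at 9.11 to 9.63. Cox5a had 120.3 CPM in AC and 542 CPM in CA3, a ratio of 4.51. Cox6b1, a subunit that faces the cytochrome c side, differed by -1.97 and had no read in N44 alone among the AC cells, without which the difference was -1.02. Cox6c (-1.24, or -0.82 without N3X and 0.33 in N37 to N46) and Cox7c (-1.23, or -0.87 without N7 and 0.14 in N37 to N46) were read in all AC and CA3 cells, and so were Cox7b (-0.88) and Cox5b (-0.82), which did not reach a difference of 1. Cox5b had the narrowest spread of the tested members in AC, from 8.17 to 10.29 (SD 0.64), while CA3 cells ranged from 7.31 to 11.27.

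The COX6A subunit comes as a general form, Cox6a1, and a form of heart and skeletal muscle, Cox6a2, that is also known from fast-spiking interneurons. Cox6a1 had reads in all 26 cells and levels of 8.31 to 10.67 in AC (median 9.80), 9.0 to 11.23 in CA3 (median 10.39) and 8.44 to 8.72 in CA1, a difference of -0.58 between AC and CA3 that was 0.16 with the cells N37 to N46 alone. Cox6a2 (chr7:128205435-128206387, minus strand) had reads in 5 of 10 AC cells (exact 95% interval 18.7 to 81.3%), 12 of 13 CA3 cells (64.0 to 99.8%) and 1 of 3 CA1 cells. Its level ranged from 0.00 to 10.80 in AC (median 3.71) and from 0.00 to 11 in CA3 (median 9.41), and the difference of -4.10 was the lowest of all tested members. Where it was read, its levels in AC (7.43 to 10.80) lay within its range in CA3 (7.29 to 11). Per kilobase it made up 24.3% of the reads of the pair in AC, 35.7% in CA3 and 10% in CA1. AC cell N41 held 1425 of the 3055 AC reads on Cox6a2, and without it the AC share was 16.2%. The median share over cells was 10.2% in AC, 30.9% in CA3 and 0 in CA1, and Cox6a2 exceeded Cox6a1 in AC cell N41 and in CA3 cells N27 and N34. With the cells N37 to N46 alone the difference of Cox6a2 was -4.96.

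**Figure D5:**
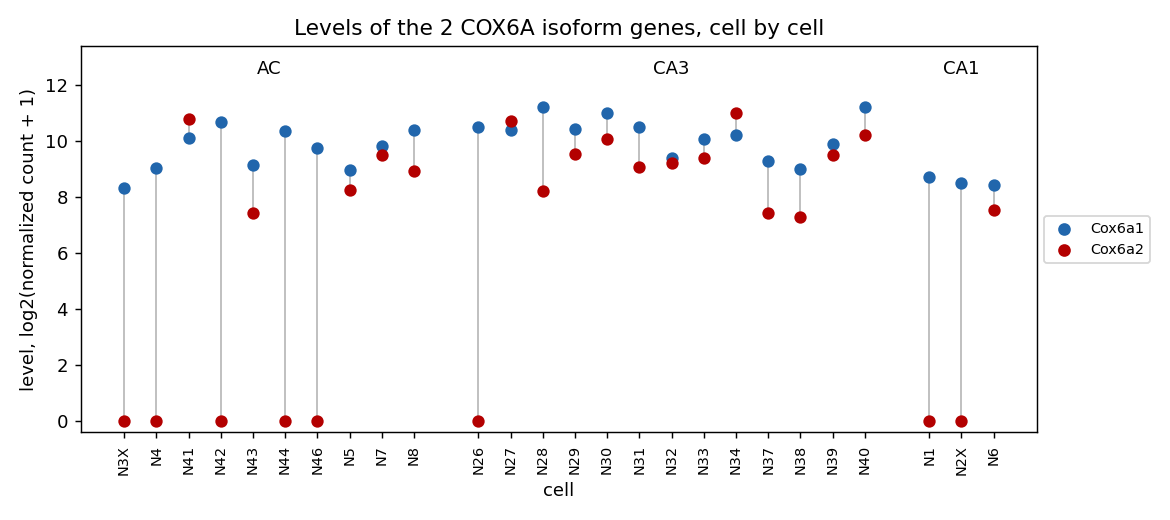
Levels of Cox6a1 (blue) and Cox6a2 (red) as log2(normalized count + 1) in each AC, CA3 and CA1 cell, joined by a line within the cell. Cox6a1 lies between 8.31 and 11.23 in every cell, and Cox6a2 is at 0 in 5 AC, 1 CA3 and 2 CA1 cells.

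Among the remaining related genes, Cox4i1, the general form of subunit 4 and the highest member of complex IV per kilobase, had levels of 4.92 to 12.25 in AC (median 10.69) and 9.0 to 12.32 in CA3 (median 11.51), a difference of -1.20. The 4.92 was in N44, and without it the difference was -0.61. Its partner Cox4i2, known from lung and low oxygen, made up 0.0458% of the pair in AC and 0 in CA3 and CA1. Cox7a2 had levels of 0.00 to 10.57 in AC (median 7.92) and 5.56 to 12.12 in CA3 (median 10.29), a difference of -2.33, or -1.50 without N44. The muscle form Cox7a1 was read in AC cell N8 alone. The supercomplex factor Cox7a2l had reads in 5 of the AC cells and in all 13 CA3 cells, with ranges of 0.00 to 9.15 and 0.93 to 10.62 and a difference of -3.26, which was 0.01 with the cells N37 to N46 alone. Cox8a differed by -1.36, from 6.90 to 11.14 in AC (median 9.72) and 8.55 to 12.31 in CA3 (median 10.72). With the cells N37 to N46 alone it differed by -0.45. Cox8b was at 0.

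Complex V had a median of -1.61. All 16 tested members were lower in AC, and 13 were lower by 1 or more, against 67.9% and 46.9% of all tested genes. Without N44 the median of complex V was -1.24. By the place of the subunits, the median was -1.08 for the F1 head and central stalk (5 genes), -1.63 for the c ring (3), -1.89 for the peripheral stalk (4) and -1.45 for the small membrane subunits (3). Atp5b, the catalytic beta subunit and the highest member in reads, ranged from 10.72 to 14.45 in AC (median 13.03) and from 12.20 to 14.45 in CA3 (median 13.63). The difference was -0.70, with 4 AC cells below the lowest CA3 cell, and was 0.30 with the cells N37 to N46 alone. It had 2382 CPM in AC, 3382 CPM in CA3 and 1432 CPM in CA1. The alpha subunit Atp5a1 ranged from 6.35 (N3X) to 13.72 in AC (median 11.85) and from 11.44 to 13.22 in CA3 (median 12.42), a difference of -1.08, or -0.52 without N3X and 0.73 with the cells N37 to N46 alone. The gamma subunit of the central stalk, Atp5c1, differed by -1.91, and 1 AC cell, N4, had no read on it. The difference was -0.84 without N4 and 0.47 with the cells N37 to N46 alone. Atp5e, the epsilon subunit, differed by -1.52, or -0.80 without N3X or N44, and had a CA3 over AC ratio of summed CPM of only 1.28. The delta subunit Atp5d (-0.73) and the small subunit Atp5k (-0.96) were the other members of complex V lower by less than 1.

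The c ring that turns as protons pass is built from 1 mature protein coded by 3 genes. Atp5g3 was the main source in each region, with 553 CPM per kilobase in AC, 1270 in CA3 and 694 in CA1, against 53.3, 115 and 49.7 for Atp5g1 and 10.5, 23.5 and 7.46 for Atp5g2. Atp5g3 ranged from 7.51 to 12.31 in AC (median 10.47) and from 10.18 to 12.43 in CA3 (median 11.73), a difference of -1.41 that was 0.12 with the cells N37 to N46 alone. Atp5g1 ranged from 3.20 (N44) to 9.96 in AC and from 8.73 to 11.18 in CA3, with 7 CA3 cells above the highest AC cell, and differed by -1.63, or -1.05 without N44. Atp5g2 had reads in 6 of the AC cells and 11 of the CA3 cells, up to 7.41 and 6.96, and differed by -2.18. All 50-base stretches of Atp5g2 and 56.2% of those of Atp5g1 occur in other transcripts, so the split within the ring is uncertain, and Atp5g3 has none.

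In the peripheral stalk, which holds the head still, all 4 genes were lower in AC by 1 or more over all cells, against 46.9% of all tested genes. Of these, 3 were so without N44. The lowest was Atp5o, the subunit that joins the stalk to the head. Atp5o ranged from 0.00 to 11 in AC (median 8.5) and from 9.15 to 12 in CA3 (median 10.71), a difference of -2.85, with 7 of 10 AC cells below the lowest CA3 cell. Of its 50-base stretches 63.0% occur in other genes, Donson among them. The stalk subunits Atp5h (-2.05) and Atp5f1 (-1.72) had no read in N44 and reads in the other AC cells, and without N44 they differed by -1.12 and -0.63. Atp5j, the coupling factor 6, was read in all cells and differed by -1.59, with 8 CA3 cells above the highest AC cell. Its difference was -0.49 with the cells N37 to N46 alone. The membrane subunits Atp5j2 (-2.31, or -1.53 without N43) and Atp5l (-1.45, or -0.82 without N3X) had reads in 9 AC cells and all CA3 cells, and 68.5% of the stretches of Atp5l occur in other genes. Atp5sl, which is no subunit and whose product Dmac2 is named for the assembly of the distal membrane arm of complex I, was read in 2 of 10 AC cells, 9 of 13 CA3 cells and no CA1 cell (0 reads, up to 0.596 CPM). It passed the filter mainly through CA3 and differed by -3.56, with CA3 levels from 0.00 to 9.57 (median 7.93) and 0.00 as the median in AC. Over the 22 tested members with no shared stretch the median difference was -1.79, and over the 7 with over 40% shared it was -2.05.

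In the main cells CA1 lay closer to AC than to CA3 in these genes, whereas with all labelled cells the median of AC minus CA1 was -2.38. Of the 42 members, 31 were lower in CA1 than in CA3 by 1 or more and 0 were higher, with a median of -1.46, while 42.5% of all tested genes were lower by 1 or more, 27.6% were higher and their median was -0.56. Between AC and CA1, 8 members were lower in AC by 1 or more and 9 higher, with a median of -0.04 that was 0.29 without N44 and whose sign also turned under some alternatives, and 38.6% and 29.8% of all tested genes were lower and higher, with a median of -0.29. These comparisons share cells. The lowest members of CA1 against CA3 were Cycs (-7.02), Sdhb (-6.33), Cox6a2 (-6.08) and Atp5sl (-5.34), each with no read in at least 1 of the 3 CA1 cells. CA1 cell N1 has the fewest reads of the 26 cells. AC cells N3X to N8 and CA1 cells N1 to N6, the neighbouring numbers, differed by a median of -0.17.

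Within a region the complexes moved together to different degrees from cell to cell, on log2 sums of CPM that share the depth of their cell. The Pearson correlation of complex III with complex V was 0.98 over the 10 AC cells and 0.49 over the 13 CA3 cells. It was 0.66 and 0.79 between complex IV and complex V, and 0.01 and 0.13 between complex II and complex V. The sum of all members and nuclear complex I correlated at 0.69 in AC and 0.93 in CA3, and the sum and the mitochondrial genome at 0.11 and 0.47. These are descriptions over few cells.

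Other genes of respiration were lower in AC as well. Nuclear complex I, the entry of electrons from NADH, had a median difference of -2.84. Of the 42 tested genes listed for it, 40 were lower in AC by 1 or more and none higher, against 46.9% and 16.6% of all tested genes. The lowest were Ndufa8 (-5.88) and the assembly factor Ndufaf5 (-5.57). Ndufaf5 was read in 3 AC cells and 12 CA3 cells, so it passed the filter mainly through CA3. Over cells with a read on the gene the median of complex I was -1.09, close to that of the members (-0.94). There 26 of 42 genes were lower by 1 or more, against 19% of all tested genes, and Ndufa8 was at -2.88 and Ndufaf5 at -0.08. The 13 protein genes of the mitochondrial genome had a median of -1.14, with 10 lower by 1 or more, against 46.9% of all tested genes. They ranged from -2.45 (mt-Nd2, or -1.54 without N42) to -0.34. Their median was -0.48 with the cells N37 to N46 alone. Their summed share was 0.211 to 1.05% of reads in AC cells and 0.300 to 1.55% in CA3 cells, and 0.00181% in CA1 cell N2X against 0.714% and 0.804% in the other CA1 cells. Assembly factors of complexes II to V had a median of -2.32 over 22 tested genes. Of these, 16 were lower by 1 or more and 2 higher, against 46.9% and 16.6% of all tested genes. The median of the assembly factors was -1.24 with a pseudocount of 10, -1.47 in thinned cells and -0.57 with summed CPM. Sdhaf4, which helps to assemble complex II (-4.72), was read in 2 AC cells and 8 CA3 cells, so it passed the filter mainly through CA3. It was at -3.34 in N37 to N46 and at -6.06 over cells with a read. Uqcc2, which helps to make cytochrome b, was at -3.96, but at -1.21 in N37 to N46 and -0.78 over cells with a read, and Ttc19 of complex III (2.08) and the copper factor Cox11 of complex IV (1.08, but 0.46 without N7 and -2.12 with the cells N37 to N46 alone) were higher in AC.

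The citric acid cycle, which complex II belongs to, had a median of -1.53 over 15 tested genes, 12 lower by 1 or more and none higher, against 46.9% and 16.6% of all tested genes. The median was -0.98 with a pseudocount of 10, -2.34 with 0.1 and -0.40 with summed CPM. Sucla2 of succinyl-CoA synthetase (-4.28) and Pdha1 of pyruvate dehydrogenase (-3.79) were the lowest. Of 12 regulators of these genes only 3 passed the filter. Ppargc1a, the coactivator of mitochondrial biogenesis, had reads in 3 of the AC cells and 7 of the CA3 cells and differed by -2.72, with medians of 0.00 and 4.02, so it too passed the filter mainly through CA3. Gabpa was read in 5 AC cells and all 13 CA3 cells and differed by -2.56, or -0.60 in N37 to N46 and -0.39 over cells with a read, and Esrra differed by 0.51. Nrf1, which codes the factor whose core is printed above, was read in 2 AC and 3 CA3 cells and Tfam in 1 and 5, so neither was compared. The summed reads of all 12 regulators were 454 CPM in AC and 329 CPM in CA3, of which Yy1, Polrmt and Pprc1, each read in 2 or 3 AC cells, gave 136, 74.1 and 66.4 CPM in AC and 40.2, 8.27 and 5.85 CPM in CA3.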

How the data were processed

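The deposited table holds unnormalized read counts by gene symbol, made by the authors. Reads had been trimmed with Trimmomatic and aligned with STAR to GRCm38. Counting was by HTSeq according to the paper and by featureCounts according to the submitters' processing notes. The paper averages identifiers that share a symbol. How reads that map to several places were counted, and whether strand was used, is not given in the sources used here. All 47 columns matched a sample.

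The 23 main columns were those an earlier comparison had found among the cells of the paper, which counts 10 AC and 20 CA3 cells. The 13 CA3 cells used here are thus only part of its CA3 cells. Other labelled CA3 columns enter only where all labelled cells are used. The members, lists, fold and cells were chosen with earlier results of these data known. Size factors came from scran 1.30.0 (pools of 10 and 20 cells) in R 4.3.3, with a pseudocount of 1. CA1 factors came from the 26 cells, scaled by the median ratio. Transcript lengths were medians of coding transcripts in GENCODE vM21, and 48 members matched by symbol and 1 by synonym. Intervals are exact Poisson and Clopper-Pearson at 95%.

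Lists were nuclear complex I, the mitochondrial genome, assembly factors, the citric acid cycle, glycolysis, carriers and porins, regulators and cytosolic ribosomal proteins. Genes were named as the 4 largest differences in each direction, the highest per kilobase in each complex, Sdh genes, Cycs, the c ring, isoform pairs and the 2 largest of each other list past the fold. Other members were named after their values were seen. The steps were tested on simulated counts. Alternatives were TMM factors of edgeR 4.0.16, DESeq2 1.42.0 factors, library size, pseudocounts of 10 and 0.1, no filter, cells thinned to 601781 reads, summed CPM, all labelled cells (19 AC cells and 21 CA3 cells) and each cell left out.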

Additional observations from a re-analysis of the deposited data

Results flagged for a closer look

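In AC cell N44 several members lay far below the other 9 AC cells. Cytochrome c (log2 of summed CPM + 1) was at 0.00 with the next cell at 4.30, and the levels were 0.00 for Cycs (next 5.99), 4.92 for Cox4i1 (next 9.06), 3.20 for Atp5g1 (next 7.64) and 0.00 for Cox7a2 (next 5.86). The Cycs level and the cytochrome c sum are the same gene. In AC cell N8, Sdhb was at 0.00 with the next cell at 6.27. Chance alone marks about 1 in 20 groups by this rule, and 25 results were looked at.

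Cells outside the comparisons had reads on the members too. The members held 15712 CPM in dentate gyrus cell N11 and 12137 CPM in dentate gyrus cell N12, with 18 and 35 members read at total counts of 89297 and 190573. The NPY-negative CA3 cell N16 held 5974 CPM, with 39 members read at 291745 counts. A count of 0 would allow up to 33.6, 15.7 and 10.3 CPM in these cells.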

How the results depend on the processing

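No paired analysis was possible because the labels give no number, mouse or day that pairs cells of the regions, and no test was made. Of 240 values of main results under alternatives other than leaving out a cell, 212 moved by less than the spread over cells or genes, 26 moved further and 2, past the fold at first, turned sign. Of 209 values of single genes, 197, 8 and 4 did so. The spread could be wider than the value itself, so these counts do not show that a value held. Carriers and porins, at -0.92 with a spread of 2.53, went to 0.09 in N37 to N46 and count among the 212. Counting values within the fold too, the sign turned for 8 values of main results and 8 of single genes. AC minus CA1 turned to 0.10 with DESeq2 factors, 0.07 with a pseudocount of 10, 0.13 without the filter and 0.29 with summed CPM, and to 0.29 without N44. With all labelled cells, the medians of AC minus CA3 were -3.70 for the members, -2.50 relative to all genes, -4.49 for complex III, -3.70 for complex IV, -3.16 for complex V, -3.41 for the mitochondrial genome, -2.65 for glycolysis and -3.12 for ribosomal proteins, AC minus CA1 was -2.38, and the mean share of cells with a read was 58.8% in AC and 90.9% in CA3. Summed CPM gave -1.15 for the members, -0.79 for complex II, -1.16 for complex III, -1.34 for cytochrome c, -1.37 for complex I, -0.57 for assembly factors, -0.40 for the citric acid cycle, -0.31 for carriers and -0.76 for ribosomal proteins. The median of the regulators, -2.56 over the 3 tested (the value of Gabpa), was -0.36 over more of them without the filter, -1.13 with a pseudocount of 10 and -1.22 in thinned cells. Leaving out single cells gave medians of -2.08 (without N41) to -1.34 (without N44) for the members, with 29 to 36 lower by 1 or more and 0 to 1 higher.

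In the cells N37 to N46 alone, a set chosen after seeing the data, the members had a median of -0.44, or 0.56 relative to all genes, with 17 lower and 2 higher by 1 or more. Complex II was at 0.35, complex IV at -0.21, complex V at -0.29, glycolysis at -0.06, regulators at -0.60 and ribosomal proteins at -0.26, the log2 ratio of summed shares was -0.25, and 15 of the 42 members changed sign. Of these, 8 were past the fold at first: Sdhc (0.92), Sdhd (1.47), Atp5g3 (0.12), Cox7a2l (0.01), Atp5c1 (0.47), Atp5a1 (0.73), Cox6c (0.33) and Cox7c (0.14). Sdha (-0.47), Atp5b (0.30) and Cox6a1 (0.16) were among the others. Over cells with a read on the gene, also chosen after seeing the data, 20 members were lower and 1 higher by 1 or more, with complex II at 0.05, complex III at -0.85, complex IV at -1.11 and complex V at -1.02. The cause was not tested. Depth sets the lowest level that could be read, and was lowest in CA1 cell N1 (601781 reads).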

Other observations

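In the main cells, glycolysis and the list of carriers and porins had medians nearer to that of all tested genes (-0.84) than the members did. Glycolysis had a median AC minus CA3 difference of -0.77 over 15 tested genes, with 6 of 15 lower in AC by 1 or more, against 46.9% of all tested genes, and none higher, led by Hk1, the hexokinase bound to mitochondria (-3.16), and the phosphofructokinase Pfkm (-2.41). Hk1 had reads in 5 of the AC cells and 11 of the CA3 cells. The list of carriers and porins also holds the creatine kinases Ckb (0.07) and Ckmt1 (-0.40), which are neither. It had a median of -0.92 over 11 genes, or -0.33 without AC cell N3X. Of the 11, 5 were lower by 1 or more and 1 higher, against 46.9% and 16.6% of all tested genes. In the cells N37 to N46 alone glycolysis was at -0.06 and the carriers at 0.09, and glycolysis lay farther from all tested genes (-1.0) than the members (-0.44). The aspartate-glutamate carrier Slc25a12 (-3.59) and the outer membrane channel Vdac1 (-3.01) were lower in AC, and the glutamate carrier Slc25a22 was higher (2.67), with medians of 10.32 in AC and 8.42 in CA3. The summed CPM in CA3 over that in AC was 1.35 for glycolysis and 1.37 for the carriers and porins.

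Cytosolic ribosomal protein genes, which are short and highly expressed like the members, had a median of -1.52 over 81 tested genes. Of these, 56 were lower in AC by 1 or more and none higher, against 46.9% and 16.6% of all tested genes. The lowest were Rps4l (-4.19, read in 3 AC cells and 8 CA3 cells) and Rps24 (-3.54). With the AC cells N41 to N46 and CA3 cells N37 to N40 alone the median of the ribosomal protein genes was -0.26. In these cells 25 (30.9%) were lower and 14 (17.3%) higher by 1 or more, against 49.9% and 21.1% of all tested genes.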
